A study of Canis lupus familiaris with 8 samples.

Results

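The pituitaries of 2 dog breeds, Beagle and Chinese Field Dog, were compared by messenger RNA sequencing. The comparison rests on 4 of the 8 libraries of the study, the 2 Chinese Field Dog and the 2 Beagle pituitary libraries, chosen by tissue and breed label and paired by exposure. All dogs were adult. In each breed 1 pituitary library was labelled as coming from chronic stress exposure (called stressed here), and 1 carried the label non-disposal, read here as the unexposed arm. The 4 groups were therefore unexposed Beagle, unexposed Chinese Field Dog, stressed Beagle and stressed Chinese Field Dog, with 1 library in each, and the 4 adrenal cortex libraries of the same breeds and exposures served for comparison. The labels name no sex, no kind of stressor and no number of dogs per library, and they do not say whether both glands came from the same dogs. Breed, animal and collection can therefore not be told apart within a pair. The Beagle is a hound kept as a laboratory breed; the Chinese Field Dog is called CFD below.

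The anterior pituitary makes growth hormone (GH1), prolactin (PRL), the stress hormone precursor POMC, and 3 glycoprotein hormones that share the alpha chain CGA and differ in their beta chain, namely FSHB and LHB of the gonadotrophs and TSHB of the thyrotrophs. Its secretory cells lie among capillaries, folliculostellate support cells and resident macrophages, and the gland borders an intermediate lobe and a posterior lobe made of nerve endings and glia. Lymphocytes and plasma cells, which secrete antibody, enter it from the blood.

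Levels are given in FPKM, which scales the reads of a gene by its length and by the size of the library, and a log2 ratio is always CFD over Beagle after adding 1 to each FPKM. Where 2 values of a breed are given together, the unexposed library comes first. Recovered reads ranged from 14327356 to 15756311 per pituitary library. A gene without reads could still have up to 3 at this depth, and all intervals of read ratios (95%) reflect counting alone. The pituitary label was borne out by the hormone genes in every library: POMC ranged from 10147 to 30315 FPKM and PRL from 11160 to 31807. GH1 and RRBP1 had a failed estimate in the unexposed Beagle library, which was treated as missing, so that their fits rest on the stressed pair.

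The stressed CFD library stood apart from the other 3. Its 10 neuron markers summed to 1752 FPKM, against 138 to 142 in the others, and its 6 astrocyte markers to 532 against 46.9 to 63.4. Its 11 pituitary markers without GH1 summed to 41944 FPKM, against 78809 to 91999. NEUROD6, a transcription factor of forebrain projection neurons, was at 45.2 FPKM there and at 0 in the other 3 libraries. List counts are therefore also given for the unexposed CFD library alone against both Beagle libraries, a comparison chosen after these values had been seen. The unexposed Beagle library held airway transcripts: the 5 airway markers found summed to 71.8 FPKM there and to 2.12 to 8.23 elsewhere. In bulk tissue more cells of a type and more RNA per cell cannot be told apart.

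At a 2-fold difference more genes were higher than lower in CFD, while without that limit more genes lay below both Beagle libraries than above them. The named genes with the highest ratios in both pairs included lymphocyte genes (GZMB, KLRD1), macrophage genes (MARCO), a class I gene (DLA-79) and a myelin gene (MBP). They also included C16orf89, a gene of no list, at 0.465 and 2.30 FPKM in Beagle and 23.0 and 16.4 in CFD. In the unexposed pair 288 of 14458 genes were at least 2-fold higher in CFD (1.99%) and 208 lower (1.44%). The stressed pair had 1280 of 14670 genes higher (8.73%) and 351 lower (2.39%). Of 14720 genes measured across the 4 libraries, 145 were at least 2-fold higher in both pairs (0.985%) and 33 lower (0.224%), while 53 were 2-fold different in opposite directions. Both CFD libraries lay above both Beagle libraries for 2395 genes (16.3%) and below them for 3343 (22.7%). Without the stressed CFD library these counts were 4416 (30%) and 5297 (36.0%). The log2 ratios of both pairs correlated at r = 0.126 across genes, which are not independent of each other.

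The test across all genes, limma on the paired ratios of both glands fitted a coefficient for each gland with 2 degrees of freedom left for the error, and called 4 of 14722 genes (0.0272%). Of these, 3 rested on 4 reads or fewer in the 4 libraries together: MIAT_exon5_2 and SNORD22, lower, and 5S_rRNA, higher. The call with depth was an unnamed gene of the lambda light chain neighbourhood, ENSCAFG00000029939, which rose by log2 4.99 (SE 0.21, limma adjusted p = 0.048). That call was lost with median-centred ratios (adjusted p = 0.053), with at least 50 reads (0.061), with a pseudocount of 0.1 FPKM (0.268), with no filter (0.156), in the pituitary libraries alone (0.189), without the stressed pair (0.186) or the unexposed pair (0.058), and in edgeR (0.570) and DESeq2 (0.532). Before adjustment 1245 genes had p under 0.05, against 736 for a flat distribution of p-values. The edgeR quasi-likelihood test called 0 genes (817 at an unadjusted p under 0.05) and DESeq2 called 129, of which 117 were higher in CFD and 31 lay in the immunoglobulin neighbourhoods described next; none of the 129 was among limma's 4. Adjusted p-values below are limma's over all tested genes, and every gene whose adjusted p is not given as past 0.05 is described by its values alone. Nothing states that libraries are separate animals, so these p-values measure the spread between these libraries only.

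**Figure D1:**
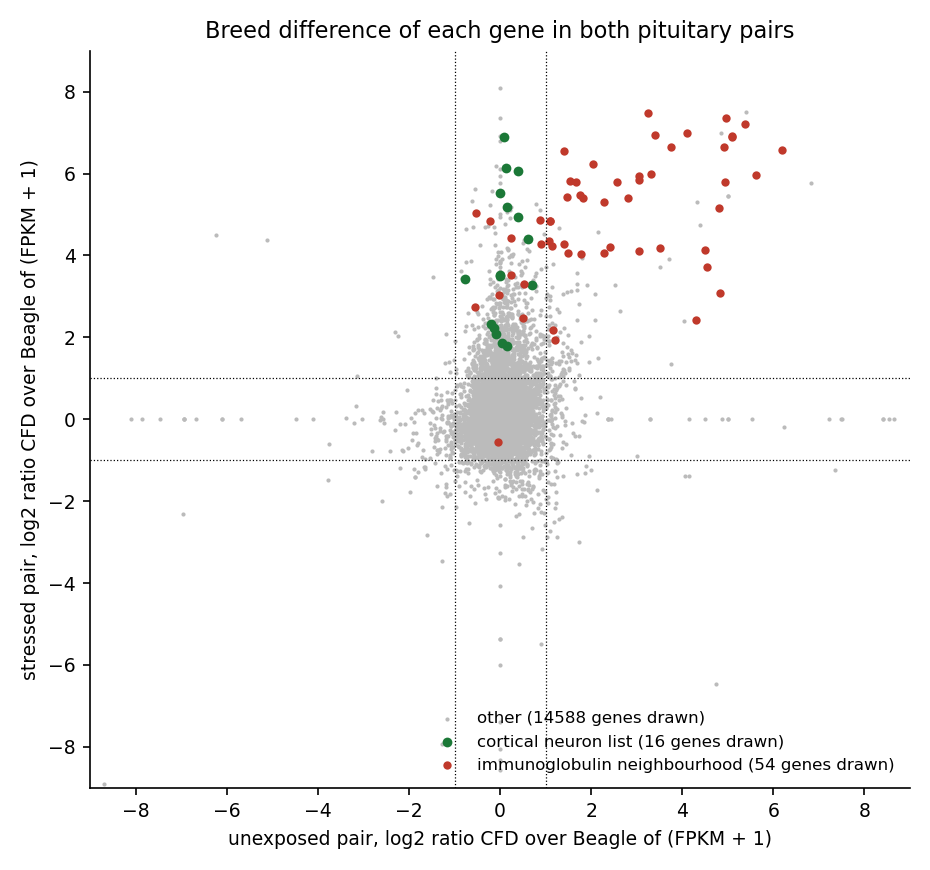
Log2 ratio CFD over Beagle of each gene in the unexposed pair (x axis) and in the stressed pair (y axis); 14658 genes are drawn, 62 lie beyond the axes, and dotted lines mark 2-fold. Most genes of the immunoglobulin neighbourhoods (red) lie to the upper right, with 43 of 55 measured at least 2-fold higher in both pairs. The cortical neuron list (green) is high in the stressed pair with a median of 0.06 in the unexposed pair.

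Antibody transcripts were higher in both CFD libraries, by more in the stressed pair. The files name 1 immunoglobulin gene in each of 3 chromosomal neighbourhoods of CanFam3.1: IGHE of the heavy chain at chromosome 8, 72862852 to 72865805, IGKV4-1 of the kappa light chain at chromosome 17, 37557755 to 37558115, and IGLV11-55 of the lambda light chain at chromosome 26, 26704418 to 26704730. The neighbouring genes without a symbol were pooled, 73 in all, up to the nearest named flanking genes (TMEM121 and the end of chromosome 8, PAX8 and EIF2AK3, SLC5A4 and RTDR1). These neighbourhoods were chosen after the values had been seen, their genes were not identified one by one, and 26 of them share a locus with another identifier, between which reads could have been split.

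Their reads summed to 1820 and 940 in the Beagle libraries and to 24496 and 74110 in the CFD libraries. As reads per 1000000 of the library that is 127 and 59.7 in Beagle and 1620 and 4878 in CFD, a ratio of 12.7 in the unexposed and 81.8 in the stressed pair. Both CFD libraries lay far above both Beagle libraries. All 3 neighbourhoods had this direction: the ratio was 10.7 and 110 for the heavy chain, 5.84 and 15.4 for kappa and 26.3 and 140 for lambda. The kappa ratios are lowered by 1 gene that was not higher in CFD, ENSCAFG00000032762. It held 266 and 317 reads in Beagle and 265 and 188 in CFD, of kappa sums of 323 and 341 in Beagle and 1991 and 5068 in CFD. Its reads are part of the pooled ratios of both glands, so kappa cannot be ranked below the other chains from these ratios. Of 55 measured genes 48 had both CFD values above both Beagle values (16.3% over all genes) and 1 had both below, and 43 were at least 2-fold higher in both pairs; the unexposed CFD library alone was also above both Beagle libraries for 48 (30% over all genes). The neighbourhoods held 43 of the 145 genes 2-fold higher in both pairs.

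ENSCAFG00000030258 of the heavy chain neighbourhood (chromosome 8, 72906320 to 73387840) held the most reads, 893 and 266 in Beagle and 5587 and 36696 in CFD. ENSCAFG00000032057 of the lambda neighbourhood (chromosome 26, 27624213 to 27624534) was at 20.4 and 10.0 FPKM in Beagle and at 664 and 1807 FPKM in CFD. ENSCAFG00000031795 of the kappa neighbourhood (chromosome 17, 37550399 to 37551440) held 1 read in each Beagle library, and 460 and 554 in CFD. The lambda gene that passed the test, ENSCAFG00000029939 (chromosome 26, 25571076 to 25571668), held 0 reads in both Beagle libraries and 152 and 180 in CFD.

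IGJ, the joining chain of secreted antibody polymers, was at 20.03 and 20.2 FPKM in Beagle and at 45.5 and 98.7 in CFD. MZB1, a chaperone of plasma cells, had log2 ratios of 1.26 and 2.69; both were named after their values had been seen. The 5 B and plasma cell markers found did not separate the breeds, with sums of 7.10 and 2.73 FPKM in Beagle and 5.13 and 10.1 in CFD. The B and plasma cell list had 4 measured genes, with medians of 0.11 and 0.76. With the unexposed CFD library alone 3 lay above both Beagle libraries (30% over all genes), and with both CFD libraries 2 did (16.3%). The 2 were CD79A of the B cell receptor at 0.508 and 0.678 FPKM in Beagle and 1.65 and 3.13 in CFD, and CD22; the B cell gene MS4A1 was below 1 FPKM in every library. In the adrenal cortex the same neighbourhoods had ratios of 6.01 and 2.44, with 66.1 and 39.2 reads per 1000000 in Beagle and 397 and 95.4 in CFD.

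**Figure D2:**
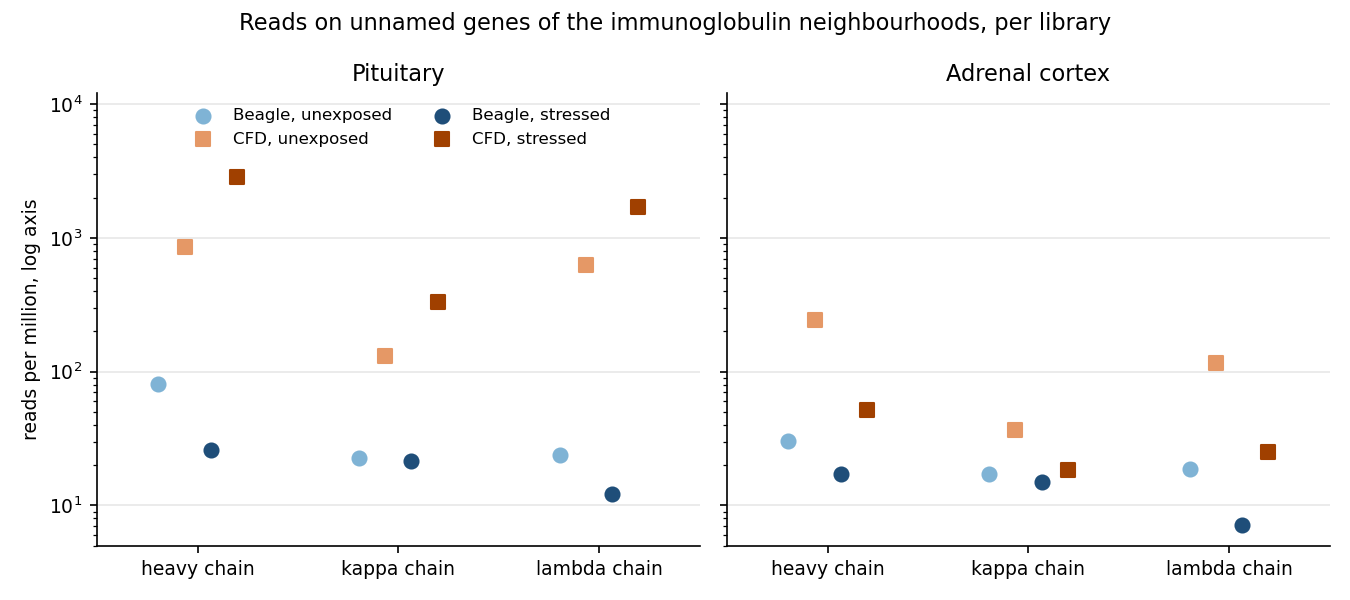
Reads per 1000000 library reads on the unnamed genes of the 3 immunoglobulin neighbourhoods (log axis), 1 point per library, circles for Beagle and squares for Chinese Field Dog (CFD). Both CFD pituitary libraries lie above both Beagle libraries in each neighbourhood; over all 3 they reach 1620 and 4878 against 127 and 59.7.

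Genes of cytotoxic lymphocytes, the cells that kill through granzymes and perforin, were higher in both CFD libraries. GZMB, granzyme B (chromosome 8, 4508716 to 4511843), held 17 reads in each Beagle library and 416 and 435 in CFD, or 1.13 and 1.10 FPKM against 26.9 and 30.7. Its log2 ratio was 3.71 in the unexposed and 3.92 in the stressed pair, with counting intervals of the read ratio of 3.88 to 5.37 and 4.12 to 5.61; limma gave 3.81 (SE 0.23, adjusted p = 0.109). KLRD1, a natural killer cell receptor subunit, was at 0.296 and 0.142 FPKM in Beagle and 3.15 and 5.12 in CFD. CD3E, a chain of the T cell receptor complex, was at 0.948 and 0.584 FPKM in Beagle and 4.77 and 12.8 in CFD, and TRDC, the delta chain constant gene, at 0.509 and 0.491 against 5.37 and 11.5. TRDC did not follow CD3E in the adrenal cortex. There TRDC was at 391 and 291 FPKM in Beagle and 260 and 596 in CFD, with ratios of -0.59 and 1.03. CD3E was at 1.32 and 0.318 FPKM there in Beagle and 2.58 and 2.94 in CFD.

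Over the T and natural killer cell list 11 of 13 measured genes had both CFD values above both Beagle values, against 16.3% of all genes, and 5 were 2-fold higher in both pairs. The unexposed CFD library alone lay above both Beagle libraries for the same number, 11 of 13, against 30% of all genes. The list's median log2 was 0.79 in the unexposed and 2.19 in the stressed pair, beside medians over all genes of -0.01 and -0.04. With a pseudocount of 0.1 FPKM the stressed median was 3.71. None of the 13 passed over all genes, and 9 had an unadjusted limma p under 0.05. PTPRC, the surface phosphatase CD45 of all white blood cells, was at 4.04 and 5.26 FPKM in Beagle and 13.8 and 19.2 in CFD. Of 3 measured neutrophil genes 0 were separated in either direction (1 above with the unexposed CFD library alone), too few to read against the background.

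Macrophage genes were higher in CFD by a similar size in both pairs. MARCO, a scavenger receptor (chromosome 19, 30996185 to 31034536), held 1 and 2 reads in the Beagle libraries and 146 and 142 in CFD. That is 0.0381 and 0.0812 FPKM against 5.41 and 5.74, with counting intervals of the log2 read ratio of 4.65 to 12.47 and 4.41 to 9.35. Limma gave 2.63 (SE 0.14, adjusted p = 0.076), which missed the threshold. Its adjusted p was 0.0255 with a pseudocount of 0.1 FPKM, and that of edgeR was 0.329. CD5L, a protein secreted by tissue macrophages, was at 0.0678 and 0.322 FPKM in Beagle and 3.76 and 2.76 in CFD.

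The 3 chains of complement C1q, which macrophages make, had similar ratios. C1QC was at 35.7 and 45.5 FPKM in Beagle and 109 and 142 in CFD (limma 1.60, SE 0.14, adjusted p = 0.186). C1QA was at 33.6 and 48.5 FPKM against 90.7 and 113, and C1QB at 24.1 and 34.4 against 64.2 and 82.5. Of the 14 measured macrophage genes 12 had both CFD values above both Beagle values (16.3% over all genes) and 0 below, with medians of 1.02 and 0.72; the 2 others were CD163 and LYVE1. Without the stressed CFD library the count was 13 of 14 (30% over all genes), and 11 had an unadjusted limma p under 0.05.

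Antigen presentation genes were higher as well, class I more than class II in the unexposed pair. Class I molecules show peptides from inside the cell and need the light chain B2M and the peptide carrier TAP1. B2M was at 1240 and 1604 FPKM in Beagle and 2416 and 3528 in CFD, and TAP1 at 21.04 and 29.2 against 36.1 and 62.8. The class I gene DLA-79 was at 29.1 and 23.2 FPKM in Beagle and at 112 and 235 in CFD. Of the 2 identifiers with the symbol DLA88, ENSCAFG00000000487 was at 218 and 261 FPKM in Beagle and at 613 and 1090 in CFD. The other identifier is not reported here, so these values do not stand for both. Class I genes are polymorphic between dogs and near-identical to each other, so that reads could have been lost or split depending on the allele.

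Of 11 measured class I genes 10 had both CFD values above both Beagle values, against 16.3% of all genes, among them the immunoproteasome subunit PSMB8 (19.7 and 25.7 against 34.9 and 48.2 FPKM) and the class I transactivator NLRC5 (2.32 and 3.30 against 4.97 and 10.1). The count was also 10 of 11 for the unexposed CFD library alone (30% over all genes), with medians of 0.75 and 0.88. Class II genes, which show peptides taken up from outside, had 7 of 8 above both Beagle libraries (16.3% over all genes), 7 with the unexposed CFD library alone (30%), with medians of 0.35 and 0.79. CD74, the class II chaperone, was at 217 and 193 FPKM in Beagle and at 301 and 369 in CFD.

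Most interferon-response genes overlapped between the breeds, with a positive median ratio in both pairs. Of 28 measured genes 7 had both CFD values above both Beagle values, against 16.3% of all genes, and with the unexposed CFD library alone 7 were above and 1 below (30% and 36.0% over all genes). The medians were 0.63 and 0.41. In the paired fit 16 of the 28 had an unadjusted limma p under 0.05, against 1245 of 14722 genes, and none passed after adjustment. The overlap counts, unlike that fit, take no account of the pairing by exposure. ISG15, a ubiquitin-like interferon product, was at 15.5 and 56.2 FPKM in Beagle and at 36.8 and 102 in CFD, so that the stressed Beagle exceeded the unexposed CFD library. IFIT1 and CXCL10 were the members 2-fold higher in both pairs. CXCL10, a chemokine that draws T cells, was at 2.08 and 5.89 FPKM in Beagle and 9.71 and 105 in CFD, and IDO1, an interferon-induced tryptophan-degrading enzyme, at 0.392 and 0.379 against 3.47 and 15.4. Whether the lymphocyte, macrophage, class I and interferon genes share a source in these libraries was not tested.

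**Figure D3:**
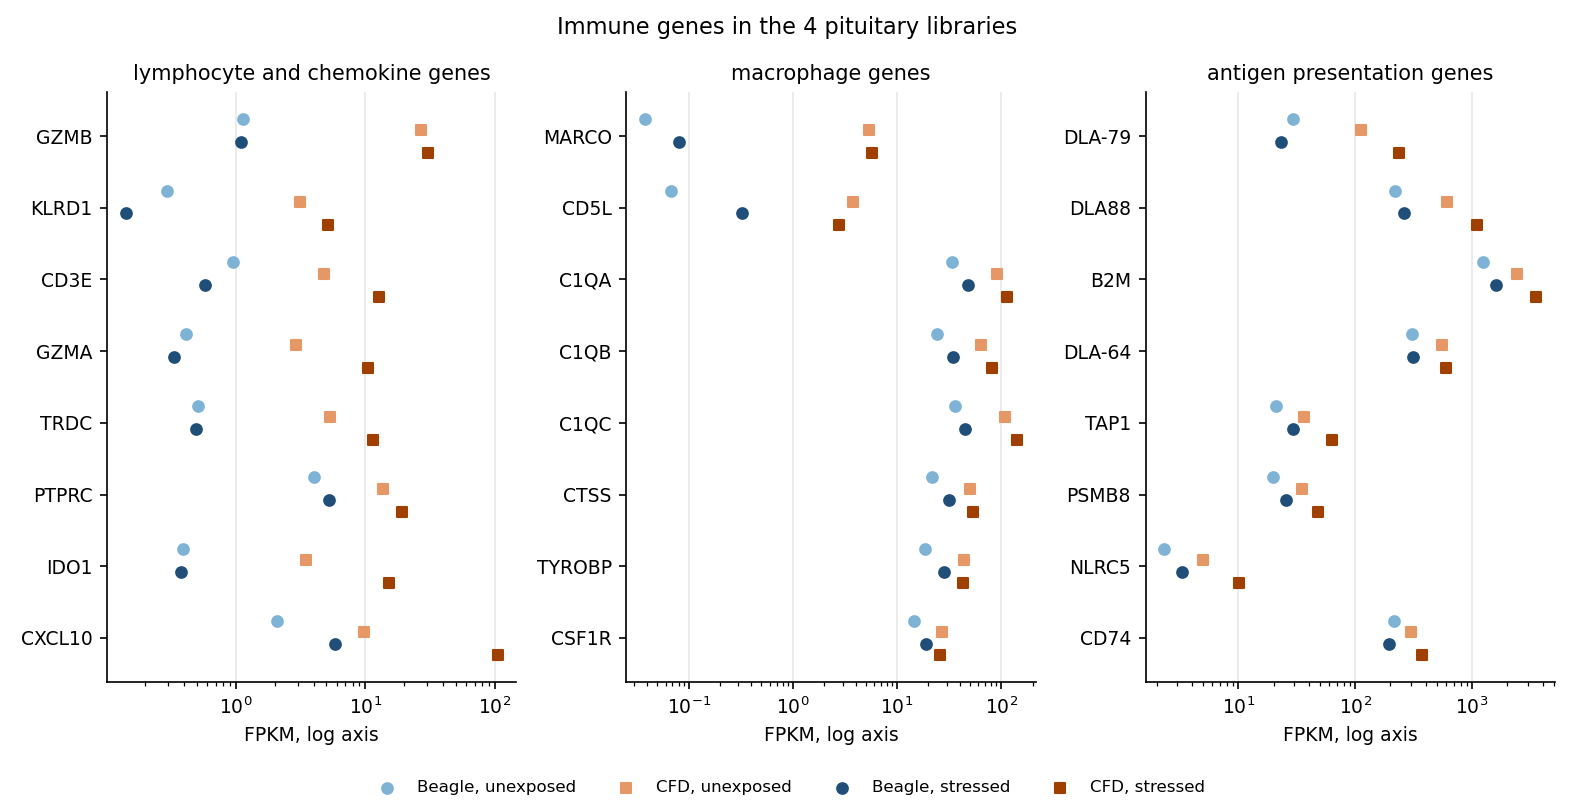
FPKM (log axis) of lymphocyte and chemokine genes, macrophage genes and antigen presentation genes in the 4 pituitary libraries, 1 point per library, circles for Beagle and squares for Chinese Field Dog (CFD). In every gene drawn both CFD points lie to the right of both Beagle points, by the most for MARCO, at 5.41 and 5.74 FPKM against 0.0381 and 0.0812.

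Among the pituitary hormones, FSHB was higher and PRL and TSHB lower in both CFD libraries. FSHB, the beta chain of follicle-stimulating hormone (chromosome 21, 50280213 to 50281642), was at 337 and 281 FPKM in Beagle and at 882 and 826 in CFD. Its log2 ratios were 1.38 and 1.56, with limma at 1.47 (SE 0.14, adjusted p = 0.217). PRL (chromosome 35, 20673829 to 20704309) was at 31611 and 31807 FPKM in Beagle and 15848 and 11160 in CFD, with ratios of -0.996 and -1.51 (limma -1.25, SE 0.38, adjusted p = 0.545). TSHB, the beta chain of thyrotropin, was at 813 and 892 FPKM in Beagle and at 413 and 203 in CFD, with ratios of -0.98 and -2.13 (adjusted p = 0.502).

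The other hormone genes did not separate the breeds. POMC was at 23764 and 26578 FPKM in Beagle and at 30315 and 10147 in CFD, higher in the unexposed and lower in the stressed pair. CGA, the shared alpha chain, was at 17056 and 22898 FPKM in Beagle and 22084 and 14716 in CFD, and LHB, the beta chain of luteinizing hormone, at 8286 and 9154 against 8871 and 4603. GH1 was at 73846 FPKM in the stressed Beagle library and at 78999 and 81835 in CFD, with a stressed ratio of 0.15. The lowest values of POMC, CGA, LHB, PRL and TSHB were all in the stressed CFD library, whose pituitary markers without GH1 also had the lowest sum. GH1 was highest in that library among the 3 with a value.

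Receptors and regulators of these cells went both ways. GHSR, the ghrelin receptor that drives growth hormone release, was at 38.7 and 22.1 FPKM in Beagle and 13.5 and 13.4 in CFD. DRD2, the dopamine receptor that restrains prolactin, was at 37.6 and 40.2 FPKM in Beagle and 36.5 and 18.3 in CFD. Of 23 measured pituitary receptors 1 lay above both Beagle libraries (SSTR5) and 5 below (against 22.7% of all genes), with medians of -0.18 and 0.02. With the unexposed CFD library alone 4 were above and 12 below, against 30% and 36.0% of all genes. Of 16 lineage factors 0 were above (16.3% over all genes) and 4 below, close to the 22.7% of all genes. With the unexposed CFD library alone 5 were above and 4 below, against 30% and 36.0% of all genes. NEUROD4, a basic helix-loop-helix factor, was at 140 and 36.0 FPKM in Beagle and 27.5 and 29.98 in CFD. POU1F1, which specifies somatotrophs, lactotrophs and thyrotrophs, was at 132 and 115 FPKM in Beagle and 93.2 and 92.5 in CFD.

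In the corticotroph and melanotroph list 3 of 9 lay below both Beagle libraries (22.7% over all genes) and 5 with the unexposed CFD library alone (36.0%). The 3 were TBX19, DRD2 and the prohormone convertase PCSK1, the last at 156 and 112 FPKM in Beagle and 108 and 83.6 in CFD. CRHR1, the receptor for corticotropin-releasing hormone, stood at 43.7 and 38.0 FPKM against 38.5 and 38.7, and the glucocorticoid receptor NR3C1 at 31.3 and 25.9 against 26.2 and 26.2. Of 15 secretory granule genes 2 were above and 2 below, against 16.3% and 22.7% of all genes. With the unexposed CFD library alone 3 were above and 6 below, against 30% and 36.0%. Posterior lobe genes had medians of opposite sign, 0.70 and -0.87, with OXT, the oxytocin gene, at 20.99 and 69.8 FPKM in Beagle and 55.7 and 12.5 in CFD.

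**Figure D4:**
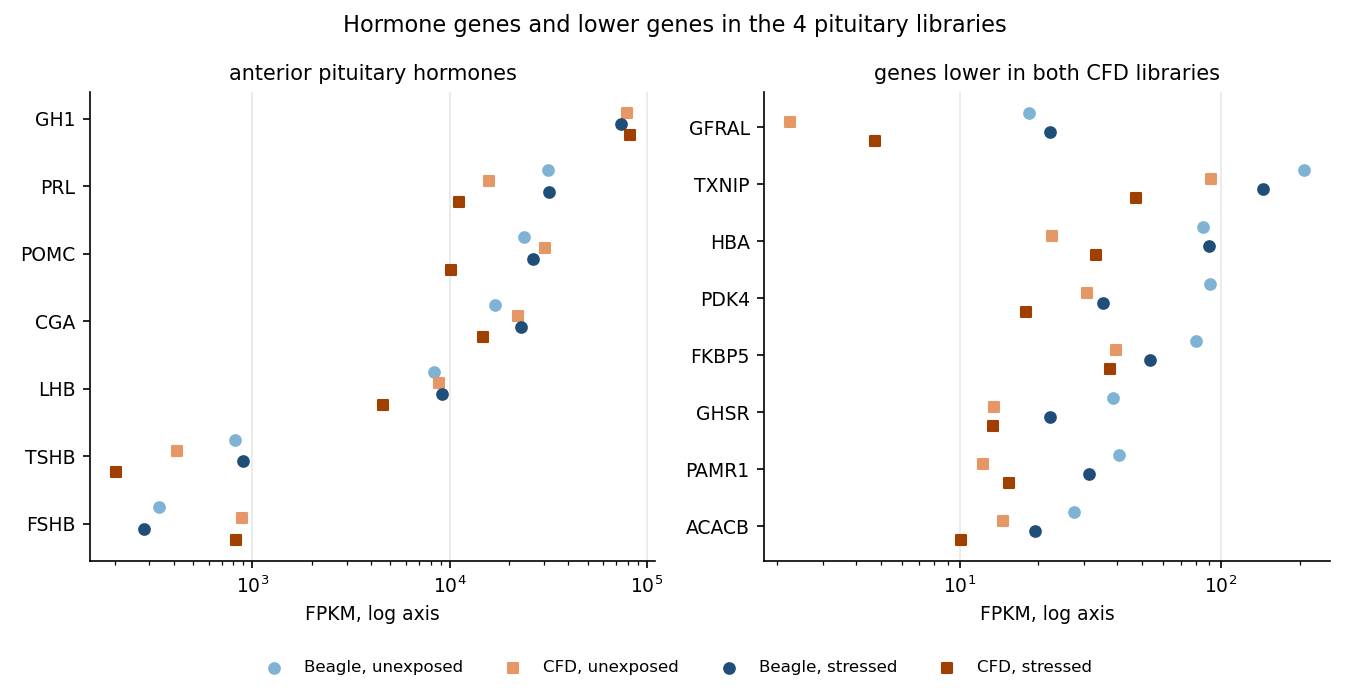
FPKM (log axis) of the anterior pituitary hormone genes (left) and of 8 genes lower in both Chinese Field Dog (CFD) libraries (right), 1 point per library; GH1 has no point for the unexposed Beagle library, where its estimate failed. FSHB is the hormone gene with both CFD points to the right of both Beagle points, at 882 and 826 against 337 and 281 FPKM, while PRL and TSHB have both to the left.

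Oligodendrocyte genes, which build myelin, were higher in both CFD libraries, while neuron and astrocyte genes were high in the stressed one. MBP, myelin basic protein, was at 21.3 and 38.0 FPKM in Beagle and at 73.3 and 271 in CFD. The 8 fixed oligodendrocyte markers summed to 31.96 and 64.6 FPKM in Beagle and 117 and 407 in CFD. Of the 8, 6 had both CFD values above both Beagle values, against 16.3% of all genes. The oligodendrocyte and astrocyte list had 8 of 15 above and 1 below (16.3% and 22.7% over all genes), with medians of 0.58 and 2.13. With the unexposed CFD library alone 8 were above and 2 below (30% and 36.0% over all genes). GFAP and AQP4 of astrocytes were at 8.40 and 0.208 FPKM in the unexposed CFD library, against 6.09 and 0.187 in the unexposed Beagle, and at 163 and 22.2 in the stressed CFD library.

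For the cortical neuron list the median log2 ratio was 0.06 in the unexposed and 3.52 in the stressed pair. SLC17A7, a vesicular glutamate carrier, was at 0.439 and 0.715 FPKM in Beagle and at 0.518 and 203 in CFD. In all, 1078 genes were at least 2-fold higher in the stressed pair without being so in the unexposed pair, and 161 the reverse. The 5 lowest genes of the stressed pair, TTR, SCTR, OTX2, DSC3 and NDNF, had log2 ratios of -3.53 to -2.87 there and of 0.42 to 1.74 in the unexposed pair. TTR, the thyroxine carrier, was at 6.69 and 86.3 FPKM in Beagle and at 9.26 and 6.57 in CFD, so that its low ratio came with a high stressed Beagle value.

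Transcripts of adrenal steroid synthesis appeared at low levels and were higher in CFD. HSD3B and CYP17A1, enzymes of steroid synthesis, were at 0.352 and 1.93 and at 0.460 and 1.93 FPKM in Beagle, and at 3.23 and 6.93 and at 3.33 and 6.81 FPKM in CFD. STAR, CYP11A1 and CYP21, the other genes of the pathway looked at after these values had been seen, also had both CFD values above both Beagle values. STAR, at 6.63 and 6.56 FPKM in Beagle and 23.1 and 11.6 in CFD, reached 0.105% to 0.420% of its level in the adrenal library of the same breed and exposure. MC2R, the corticotropin receptor of the adrenal, was at 0 in all 4 pituitary libraries and at 88.9 to 98.1 FPKM in the adrenal ones. At this depth a count of 0 still allows up to 3 reads. What part adrenal RNA has in these values was not tested.

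Several genes were lower in both CFD libraries. GFRAL, the receptor for the hormone GDF15 (chromosome 12, 22646454 to 22702637), held 298 and 360 reads in Beagle and 35 and 73 in CFD. That is 18.5 and 22.2 FPKM against 2.25 and 4.77, with log2 ratios of -2.59 and -2.01. Limma gave -2.30 (SE 0.19, adjusted p = 0.186), and edgeR gave an adjusted p of 0.638. TXNIP, an inhibitor of thioredoxin and glucose uptake, was at 208 and 144 FPKM in Beagle and at 91.2 and 47.3 in CFD. PAMR1, a secreted protein first described in muscle, was at 40.7 and 31.2 FPKM against 12.3 and 15.4, and ACACB, which makes the malonyl-CoA that restrains fat burning, at 27.3 and 19.4 against 14.6 and 10.2.

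Haemoglobin transcripts, which red blood cells and their precursors carry, were lower too. HBA, the alpha chain, was at 85.6 and 89.8 FPKM in Beagle and at 22.6 and 33.3 in CFD. An unnamed gene of chromosome 21, ENSCAFG00000030286 at 28179118 to 28205138, was at 401 and 500 FPKM in Beagle and at 102 and 146 in CFD. Beside HBA an unnamed gene of chromosome 6, ENSCAFG00000032615 at 40324262 to 40326351, was at 29.1 and 29.9 FPKM against 7.27 and 10.7. In the adrenal cortex HBA had ratios of -1.77 and -0.16. How much blood each piece held was not recorded in the labels. For the short genes TMSB10 and LYRM4 the FPKM ratios (-1.02 and -1.23, and -1.39 and -1.64) were not borne out by the reads. TMSB10 held 532 and 622 reads in Beagle and 648 and 600 in CFD, with intervals of the log2 read ratio of 0.08 to 0.42 and -0.07 to 0.25. LYRM4 held 111 and 97 against 89 and 83. Of the 33 genes 2-fold lower in both pairs the interval of the read ratio lay below 0 in both pairs for 17, and of the 145 higher ones it lay above 0 for 126.

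Glucocorticoid-responsive genes were lower in CFD, by more in the unexposed pair. FKBP5, the chaperone that restrains the glucocorticoid receptor, was at 80.3 and 53.6 FPKM in Beagle and at 39.8 and 37.6 in CFD, and PDK4, a switch from glucose to fat use, at 90.9 and 35.3 against 30.7 and 17.9. Of 12 measured targets 9 had both CFD values below both Beagle values, against 22.7% of all genes, and MT2A lay above. With the unexposed CFD library alone the counts were also 9 below and 1 above, against 36.0% and 30% of all genes. The medians were -0.998 in the unexposed and -0.20 in the stressed pair. PER1, ERRFI1 and ZBTB16 had unexposed ratios of -1.16, -2.10 and -1.42 and stressed ratios of -0.08, -0.10 and -0.21. For all 3 the unexposed Beagle library was the highest. It was also the highest for the signal-induced genes NR4A1, at 108 FPKM against 16.8 to 33.5 in the others, DUSP2, at 22.4 against 1.32 to 3.82, and GEM, at 14.7 against 1.51 to 1.91.

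Some clock genes of the negative arm were lower as well: PER2 was at 14.9 and 14.1 FPKM in Beagle and 8.29 and 9.91 in CFD, PER3 at 19.4 and 22.3 against 14.6 and 15.7, and CRY1 at 21.2 and 19.2 against 13.9 and 14.6. Of 17 measured clock genes 6 lay below both Beagle libraries (22.7% over all genes) and ARNTL, of the positive arm, above. With the unexposed CFD library alone 8 were below and 4 above, against 36.0% and 30% of all genes. The list's median log2 was -0.20 in the unexposed and -0.09 in the stressed pair. The time of day of collection is not in the labels.

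Small FPKM differences in one direction ran through the measured ribosomal protein genes. Of 72 listed, 43 were matched to a symbol. Of 34 measured, 31 had both CFD values below both Beagle values, against 22.7% of all genes, and 31 of 34 also with the unexposed CFD library alone, against 36.0%. The median log2 was only -0.10 in the unexposed and -0.35 in the stressed pair: RPS14 was at 2287 and 2229 FPKM in Beagle and at 1974 and 1819 in CFD. In the adrenal cortex the list's medians were -0.24 and 0.18. The FPKM ratios of the short genes TMSB10 and LYRM4 were not borne out by reads. Whether those of the ribosomal protein genes are was not tested. Nuclear genes of mitochondrial respiration had 12 of 23 above (16.3% over all genes) and 0 below. With the unexposed CFD library alone 12 were above and 4 below (30% and 36.0% over all genes). The medians were 0.07 and 0.38, and 0 of the 23 had an unadjusted limma p under 0.05. Of the 13 mitochondrially encoded genes 0 were separated in either direction, against 16.3% above and 22.7% below over all genes. Their medians were 0.20 and 0.72, and 6 of the 13 had an unadjusted limma p under 0.05. None of these passed the test over all genes.

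**Figure D5:**
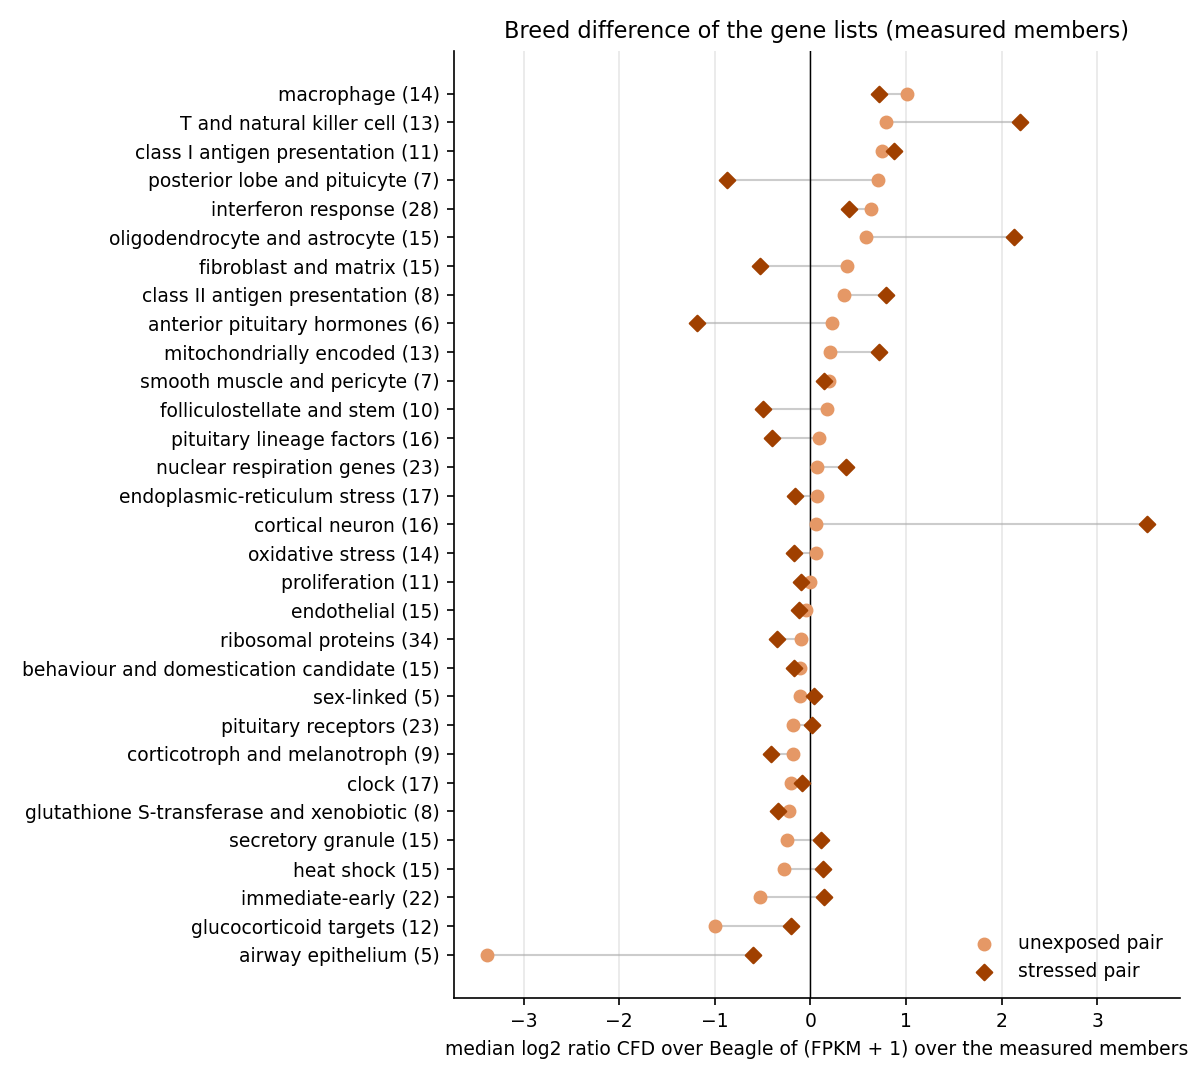
Median log2 ratio CFD over Beagle of each gene list with at least 5 measured members (their number in brackets), in the unexposed pair (circles) and the stressed pair (diamonds). Macrophage (1.02 and 0.72) and class I (0.75 and 0.88) lists are high in both pairs, the cortical neuron list is high in the stressed pair (3.52) and the glucocorticoid list is low in the unexposed pair (-0.998).

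The same breed contrast in the adrenal cortex gave similar ratios for several immune genes. GZMB was at 2.74 and 0.772 FPKM in the Beagle and at 20.5 and 16.4 in the CFD adrenal libraries, MARCO at 0.197 and 0.177 against 9.74 and 7.76, and DLA88 (the identifier named above) at 290 and 309 against 1171 and 1174. Tested as a difference between glands, limma called 5 of 14808 genes (0.0338%), among them SNORD22, MIAT_exon5_2, SNORD14 and 2 genes without a symbol, each on at most 4 pituitary reads. GZMB, MARCO and CD5L had adjusted p = 0.830 in that test, with pituitary minus adrenal differences of 0.90, -0.40 and -2.10. An adjusted p of this size does not show that the glands are alike.

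Among genes with a symbol and at least 100 pituitary reads, GABRG1 and ADCYAP1R1 were among the 3 with the smallest p-values for a difference between glands. GABRG1, a subunit of the GABA-A receptor, was at 0.565 and 3.83 FPKM in Beagle and at 2.84 and 11.3 in CFD pituitaries, so that the breeds overlapped, and was lower in CFD in the adrenal cortex (limma difference 2.27, SE 0.18, adjusted p = 0.272). ADCYAP1R1, the receptor for the releasing peptide PACAP, was at 19.1 and 28.8 FPKM in Beagle and 32.3 and 53.7 in CFD pituitaries, and at 25.8 and 17.4 against 13.4 and 7.44 in the adrenal cortex (difference 1.81, adjusted p = 0.673). Neither passed.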

How the data were processed

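RNA was sequenced from 8 dog libraries, of which the 4 pituitary libraries are compared here, 1 per breed and exposure. Reads were aligned with TopHat to CanFam3.1, per the submitters' processing notes; the counter, annotation and size factors are not given in the sources used here. The authors deposited FPKM per gene, and beside it a signal, a gene count divided by a size factor. Values of the signal were whole multiples of 1 step per library (99.1% within 0.02), from which reads were recovered; in the stressed CFD pituitary the step was near 1 and the reads are near the true counts. The labels' extraction text speaks of spleen, while title and tissue say pituitary.

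Paired log2(FPKM + 1) differences, CFD minus Beagle, of both glands were tested with limma 3.58.1 (R 4.3.3) over genes with a mean of at least 1 FPKM, with Benjamini-Hochberg adjustment and a threshold of 0.05. edgeR 4.0.16 and DESeq2 1.42.0 on recovered reads, other pseudocounts, filters, centring and left-out libraries were alternatives. Failed estimates of GH1 and RRBP1 in the unexposed Beagle library were set missing. An exact permutation test of 2 libraries against 2 cannot pass 0.05 and was not used. The script was tested on simulated data.

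Named genes were the limma calls, the 12 highest and lowest over both pairs, the 5 highest and lowest of each pair, the 4 most abundant and any 2-fold members of each list, and the 3 with the smallest p between glands; those named otherwise were chosen after their values were seen. A gene was measured at a mean of at least 1 FPKM. Members and lists were chosen with earlier results of these data known. Symbols were matched through RefSeq synonyms. Some named genes are not reported here.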

Additional observations from a re-analysis of the deposited data

Results flagged for a closer look

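For 5 of the named genes both pituitary ratios were above 0 and both adrenal ratios below 0, some of them by little. Limma's test of the difference between glands passed for none of the 5. The pituitary minus adrenal difference of the log2 ratios was 2.27 for GABRG1 (adjusted p = 0.272) and 1.81 for ADCYAP1R1 (adjusted p = 0.673). It was 4.27 for NPY, a neuropeptide, 3.55 for SLC17A7 and 3.69 for CAMK2A, a neuronal kinase subunit, each at adjusted p = 0.830. NPY was at 266 and 35.2 FPKM in the Beagle and at 27.1 and 25.8 in the CFD adrenal cortex, and at 1.64 and 11.8 against 7.55 and 114 in the pituitary. SLC17A7 and CAMK2A were below 1 FPKM in the other 3 pituitary libraries and at 203 and 131 FPKM in the stressed CFD library, where the neuron markers were high. Their unexposed pituitary ratios were 0.08 and 0.14, with counting intervals of the log2 read ratio of -0.70 to 1.20 and -0.22 to 0.87. In the adrenal cortex SLC17A7 was at 0.113 to 0.217 FPKM, with ratios of -0.11 and -0.01. An opposite direction in both pairs is therefore not shown for SLC17A7 and CAMK2A.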

How the results depend on the processing

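The test paired the libraries by exposure, and without this block limma called 13 genes in place of 4. Genes 2-fold different in the unexposed pair numbered 496, and 799 with a pseudocount of 0.1, 299 at a mean of at least 5 FPKM and 314 with at least 50 reads; in both pairs they numbered 178, and 339 with a pseudocount of 0.1. Limma called 3 genes with median-centred ratios, 5 in the pituitary libraries alone (2 of them among the 4), 2 with no filter and 0 with at least 50 reads (1303 at an unadjusted p under 0.05), edgeR 0 (817) and DESeq2 129. Without 1 library or pair limma called 36 to 67, of which 42 of 43 without the stressed pair had under 10 reads. Without the stressed CFD library 9713 genes did not overlap, against 5738. The log2 change turned sign for these genes when a library or pair was left out, with the cause not tested and the range given as lowest and highest: TAC1 -0.57 to 5.62, CGA -0.64 to 0.37, SLC17A7 -0.050 to 6.90, LHB -0.99 to 0.10, POMC -1.39 to 0.35, NDNF -2.87 to 0.50, SCTR -2.99 to 1.74, CCK -0.21 to 6.07, NR4A1 -2.62 to 0.057, OTX2 -2.88 to 1.03, TTR -3.53 to 0.42, DSC3 -2.88 to 1.254, DUSP2 -3.15 to 1.06 and BPIFA1 -3.38 to 0.026. Genes under 10 reads cannot be ranked at this depth.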
